A study of Mus musculus with 18 samples.

Results

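Cytosolic ribosomal proteins are the protein parts of the ribosome, the particle that translates messenger RNA outside mitochondria. Rpl genes encode proteins of the large subunit and Rps genes those of the small subunit. A gene was taken as a member where its symbol was Rpl or Rps followed by a number and optional letters, or was Rplp0, Rplp1, Rplp2 or Rpsa. S6 kinase genes and symbols marked as pseudogenes were left out. This rule was met by 84 of the 43280 gene rows, and 82 of them also reached 1 CPM (counts scaled to a common library size) in 3 or more libraries, as did 14158 genes in all. These 82 held 49 large-subunit and 33 small-subunit symbols. The 2 rows that did not pass were Rpl10l and Rpl3l. The rule uses names only, so Rps3a1, the ubiquitin-like fusion Fau and other ribosomal protein genes with other names are not members. For the same reason Rpl37rt and Rps4l are members, although both are annotated as transcribed processed pseudogenes.

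The cells were macrophages differentiated in culture from the bone marrow of C57BL/6J mice with a wild-type genotype, and their poly(A) RNA was sequenced. Lipopolysaccharide (LPS), a cell wall product of bacteria that macrophages sense through a Toll-like receptor, was used both in the animal and in the dish. The mice had been given phosphate-buffered saline (PBS), 1xLPS or 4xLPS, and their macrophages were then stimulated with LPS in vitro or left unstimulated, giving 6 groups of 3 libraries. The stimulated groups are PBS_LPS, 1xLPS_LPS and 4xLPS_LPS, and their unstimulated counterparts are PBS_NO, 1xLPS_NO and 4xLPS_NO. The labels used give neither LPS amounts nor times. They also leave unsaid whether each library had its own mouse, and the p-values therefore reflect library-to-library spread, which may be technical.

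Arms follow the sample titles, which the study design and the table's columns share. In 12 of the 18 libraries the treatment tag of the same-titled sample names the other of PBS and 4xLPS. Read by those tags, each direction given here for 4xLPS against PBS would turn round, and the PBS and 4xLPS responses to LPS would change places. The number in a column's name, however, leads to a sample with the same arm in its tag as the column has in its name, and this holds for 18 of 18 columns. Which label is right was not settled.

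Total counts ran from 9296453 to 54050622 per library. All 8 macrophage markers looked at, among them Csf1r, Cd68 and Lyz2, were detected in every library, and no B cell, T and NK cell or erythroid marker passed the CPM minimum. Markers of stromal cells passed in 6 of 7 cases, led by the collagens Col1a1 and Col1a2, and 8 of 9 neutrophil markers passed, with Ly6g at 0 in 15 of 18 libraries. The megakaryocyte markers Pf4 (48.1 to 130 CPM) and Itga2b (3.06 to 12.4 CPM) passed too. So did the dendritic cell marker Zbtb46 (0.422 to 4.98 CPM) and the mast cell marker Mcpt8 (0.222 to 3.85 CPM).

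Ribosomal proteins are needed in fixed proportions, because each takes a set place around the ribosomal RNA. Their messenger RNAs typically begin with a C followed by a run of pyrimidines, the terminal oligopyrimidine (TOP) motif, through which the kinase mTOR and the RNA-binding protein LARP1 set how strongly they are translated. Control at that step changes protein output without a change in messenger RNA, which is the quantity measured here. Many ribosomal protein genes also have processed pseudogenes, copies of the spliced message placed elsewhere in the genome.

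RefSeq promoters (build GRCm38.p6) were found for 61 of the 82 genes. The start base was a C with a run of at least 5 pyrimidines from it in 13 of the 61 (21.3%), against 2.5% of 27025 genes with a listed promoter and 0 of 69 mitochondrial ribosomal protein genes. The ETS-type motif CCGGAAG, on either strand within the 250 bases before and the 50 from the start, was in 39.3% of the 61, 9.1% of all genes and 36.2% of the mitochondrial ribosomal protein genes. TATAAA in the 50 bases before the start was in 0 of the 61 and 2.9% of all genes. These are matches of letters in the windows and not tested sites. The following 80-base stretches hold 60 bases before the annotated start and 20 from it on, with the unbroken pyrimidine run that holds the start base in capitals. They are shown for some of the genes the results turn on, and for Rps6 and Rplp2, picked for their run at the start. Runs are therefore more frequent among them than among the 61. Of genes named below and not shown, Rpl37rt and Rps2 start at a C with a run of 3 and 1. Rpl24, Rpl11 and Rpsa start at a G or an A. Rps21 has a second listed start, a T with a run of 1.
Rpl35 (chr2:39005112-39005191, minus strand): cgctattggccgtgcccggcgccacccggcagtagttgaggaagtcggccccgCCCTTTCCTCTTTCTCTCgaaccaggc
Rpl4 (chr9:64173327-64173406, plus strand): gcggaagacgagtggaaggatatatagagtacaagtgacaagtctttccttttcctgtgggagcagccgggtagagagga
Rps27 (chr3:90213629-90213708, minus strand): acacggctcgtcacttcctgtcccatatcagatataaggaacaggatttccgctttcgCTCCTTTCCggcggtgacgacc
Rps27rt (chr9:114982720-114982799, minus strand): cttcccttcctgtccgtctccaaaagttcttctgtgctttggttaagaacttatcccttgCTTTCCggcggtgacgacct
Rps21 (chr2:180257319-180257398, plus strand): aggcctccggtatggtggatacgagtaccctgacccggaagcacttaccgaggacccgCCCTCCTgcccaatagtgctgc
Rps6 (chr4:86857348-86857427, minus strand): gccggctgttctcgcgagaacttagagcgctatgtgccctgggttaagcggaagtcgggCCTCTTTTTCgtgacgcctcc
Rplp2 (chr7:141447591-141447670, plus strand): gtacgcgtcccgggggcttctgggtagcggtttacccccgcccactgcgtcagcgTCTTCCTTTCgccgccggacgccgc

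The 82 genes together took between 1.93% and 4.51% of a library's counts. The 3 libraries of a group, given in order of their number, had 2.68%, 2.49% and 2.75% in PBS_LPS and 2.22%, 2.68% and 2.66% in PBS_NO. They had 2.17%, 2.31% and 3.61% in 1xLPS_LPS and 4.51%, 2.16% and 1.93% in 1xLPS_NO. They had 2.31%, 2.23% and 2.74% in 4xLPS_LPS and 3.36%, 2.42% and 2.61% in 4xLPS_NO. Stimulated and unstimulated libraries overlapped in each arm, and the group means (2.64% ± 0.134 in PBS_LPS against 2.52% ± 0.256 in PBS_NO, SD, n = 3) lay within the spread between libraries. The SD of the log2 summed CPM of single libraries within groups was 0.43, and that of the 6 group means was 0.14. These 2 values are not alike, because a mean of 3 libraries varies less than a single library. The SD of the share differed between groups, from 0.134 in PBS_LPS to 1.43 in 1xLPS_NO. The 95% Wilson intervals of these shares were at most 0.0177 percentage points wide and cover counting error only.

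**Figure D1:**
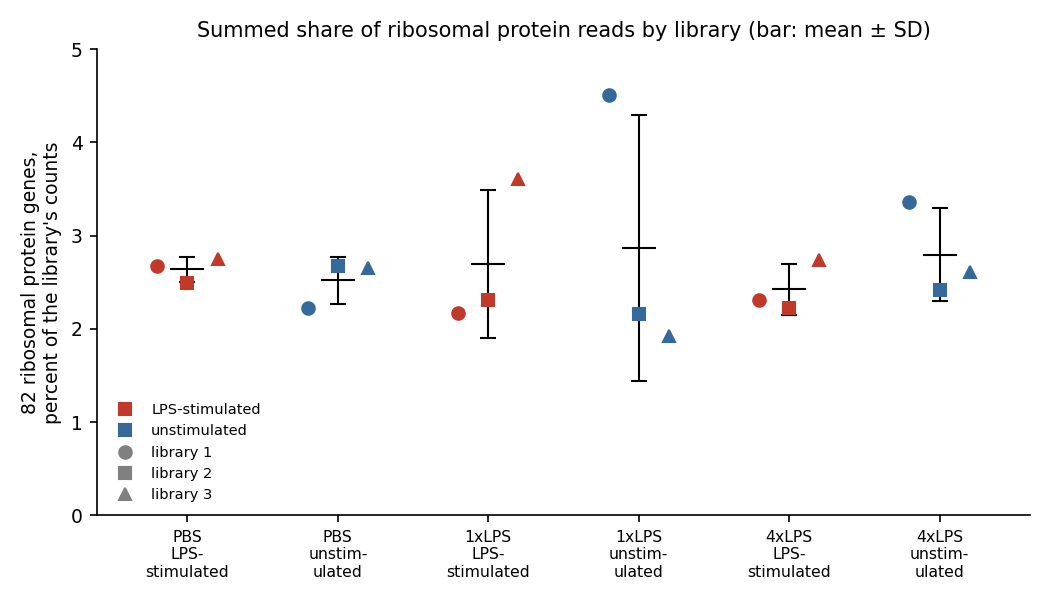
Percent of each library's counts in the 82 ribosomal protein genes (vertical axis) in the 6 groups (horizontal axis), with LPS-stimulated libraries in red and unstimulated ones in blue, the marker shape giving the library number and the bar the mean ± SD of 3 libraries. Library 1 of 1xLPS_NO (4.51%), library 3 of 1xLPS_LPS (3.61%) and library 1 of 4xLPS_NO (3.36%) lie above the rest.

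Members were high together most of all in 3 libraries. In 1xLPS_LPS library 3, 80 of 82 members were the highest of the 3 libraries of their group, as were 77 in 1xLPS_NO library 1 and 73 in 4xLPS_NO library 1. Of all genes tested, 38.4%, 37.3% and 42.7% were the highest of their group in these same libraries. Mitochondrial ribosomal proteins build the separate ribosome inside mitochondria, and their summed level was highest in these same libraries. It was 2520 CPM in 1xLPS_LPS library 3, 2975 CPM in 1xLPS_NO library 1 and 2205 CPM in 4xLPS_NO library 1. The rest had 1691 to 2120 CPM, with 1788 and 1822 CPM in the other libraries of 4xLPS_NO. Counts in transcripts under 1000 bases made 8.9% to 10.6% of a library and mitochondrial transcripts 0.275% to 0.848%. The short transcripts made 9.84%, 9.96% and 10.1% of 1xLPS_LPS library 3, 1xLPS_NO library 1 and 4xLPS_NO library 1. Mitochondrial transcripts made 0.848%, 0.551% and 0.629%, and the first of these is the highest of the 18 libraries. Macrophage markers summed to 20397, 12647 and 19975 CPM in them, and the value of 1xLPS_NO library 1 is the lowest of all libraries. The part of any such property in the results was not tested, and the results below are also given without these libraries. Most members were highest in them, so leaving them out also removes spread of the members themselves. In 4xLPS_LPS library 3, 62 of 82 members were the highest of their group, where 36.1% of all genes were. That library was kept in the fits without the high libraries.

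Across the 18 libraries, after subtraction of each group's mean, members followed one another. For 76 of 82 the within-group correlation with the summed other members was above 0.5, with a median r of 0.87 over 18 libraries that share depth and preparation within each point. Rpl24, Rpl37rt and Rpl35 had the lowest values, r = -0.38, -0.03 and 0.30. The median within-group SD of a member was 0.48 on the log2 scale, against 0.29 for all genes tested.

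**Figure D2:**
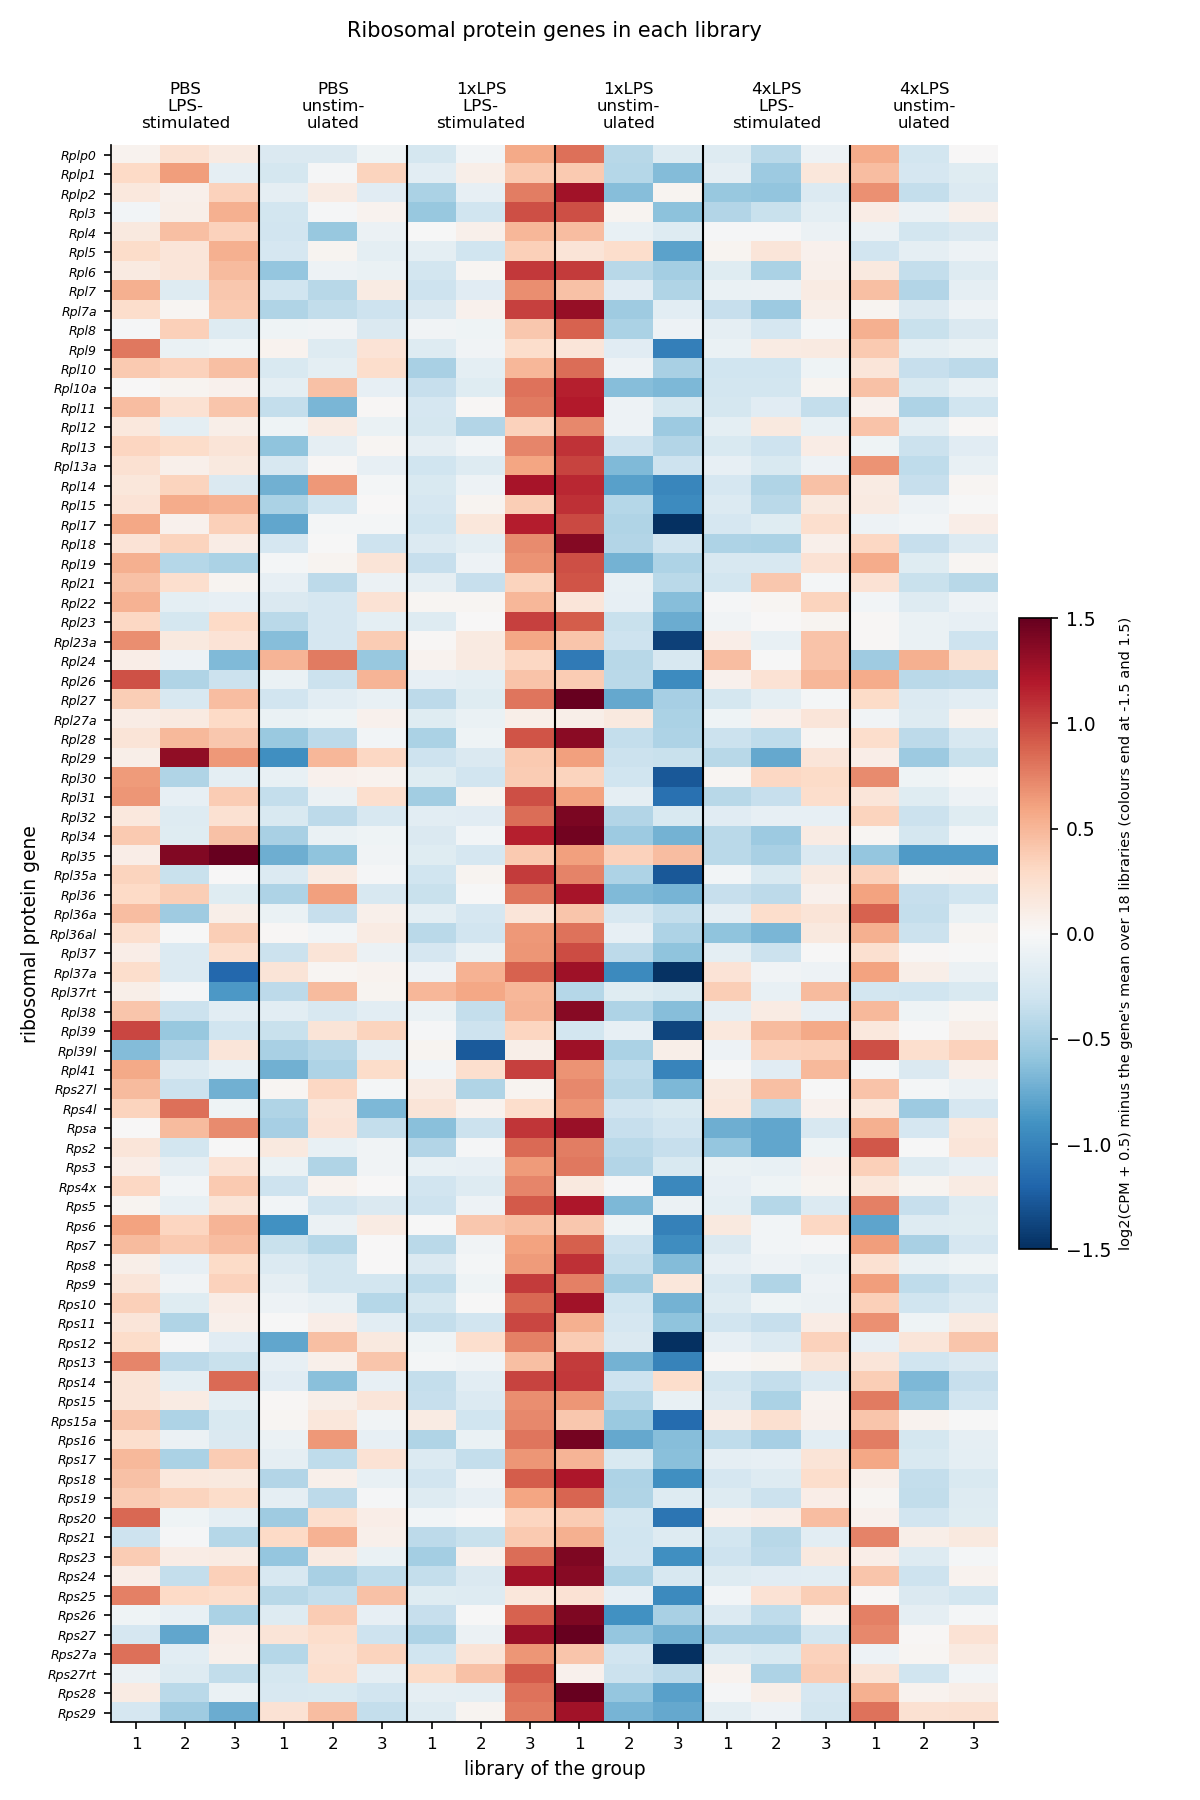
Ribosomal protein genes (81 rows) in each of 18 libraries (columns, numbered within their group), coloured by log2(CPM + 0.5) minus the gene's mean over all libraries. The red columns are 1xLPS_NO library 1 and 1xLPS_LPS library 3, where 77 and 80 of 82 members were the highest of their group, and the Rpl35 row departs from its neighbours in PBS_LPS libraries 2 and 3.

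In the PBS arm, stimulation with LPS was accompanied by a small upward displacement of the set. Changes are given as log2 fold changes ± standard error from edgeR's quasi-likelihood fit over all 14158 genes and 18 libraries, with p-values adjusted by Benjamini-Hochberg within a comparison and called at under 0.05. The median member had 0.26 and 65 of 82 lay above 0, where the median of all genes tested was -0.02 and 48.5% of them lay above 0. Members followed one another within groups (median r of 0.87), so the 82 are not independent observations and single libraries can move most of them together. The call was reached by 2 members, both higher, where 25.3% of all genes were called (14.0% rose and 11.3% fell). Unadjusted p was under 0.05 for 7 members (8.54%), against 37.4% of all genes. Groups did not overlap for 23 members with higher values in PBS_LPS and for 1 with lower values, which are 28.0% and 1.22% of the 82, where 24.1% and 23.4% of all genes were separated in that way (47.5% together). Of 16 mitochondrially encoded transcripts 1 lay above 0 in this response, with a median of -0.52 and none called, and their part in the values of the members was not tested. Fewer transcripts per cell and fewer cells with the transcript cannot be told apart in such bulk libraries.

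Rpl35, a large-subunit protein beside the exit of the nascent peptide tunnel, had the largest change of the 82 in this comparison. Its TMM-scaled level was 69.5, 171 and 245 CPM in PBS_LPS and 38.9, 42.6 and 62.5 CPM in PBS_NO. All 3 stimulated libraries were higher, library 1 only just, and the stimulated libraries differed among themselves more than 3-fold. The log2 fold change was 1.76 ± 0.31 (edgeR adjusted p = 3.3e-04), and over 17 alternative fits it ran between 1.23 and 2.12 with the adjusted p at most 0.00446. Rpl4, a large-subunit protein that lines the same tunnel, had 707, 874 and 810 CPM in PBS_LPS against 525, 430 and 601 CPM in PBS_NO. Its groups were separate too, and it rose by 0.62 ± 0.19 (edgeR adjusted p = 0.0202). That call did not hold without PBS_LPS library 2 (edgeR adjusted p = 0.0780) or 3 (0.0681), nor without PBS_NO library 1 (0.0558) or 2 (0.136). It was also lost with library totals only (edgeR adjusted p = 0.0507) and with limma (limma adjusted p = 0.0627). In this response DESeq2 called Rpl35 and Rpl4 higher, among 4151 genes called. Limma called Rpl35 higher and Rps21 lower, among 4022 genes called.

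None of the 3 high libraries belongs to the PBS arm, but the fit shares its spread estimate over all libraries. Without 1xLPS_NO library 1 and 1xLPS_LPS library 3, edgeR called 15 members higher and 2 lower in PBS_LPS, and without 4xLPS_NO library 1 as well 23 higher and 2 lower. With the PBS arm fitted alone the counts were 15 and 2. Of all genes 19.6%, 20.9% and 18.2% rose in these 3 fits and 16.4%, 17.0% and 16.2% fell. Of the members 18.3%, 28.0% and 18.3% rose and 2.44% fell in each. Most members were highest in the libraries these fits leave out, so the fits also remove spread of the same members. The larger counts are therefore not added support for a rise. Rpl11, Rpl7a, Rpl15, Rpl28, Rps6, Rps7 and Rps19 were among those that rose in all 3 fits, and Rps21 and Rps29, both small-subunit proteins, were the ones that fell. Rps6, the substrate after which S6 kinase is named, had 199, 164 and 186 CPM in PBS_LPS and 69.3, 122 and 142 CPM in PBS_NO. Rps21 had 150, 184 and 138 CPM in PBS_LPS and 229, 266 and 196 CPM in PBS_NO. For both genes the groups were separate.

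In the 1xLPS arm the answer depended on single libraries. With all libraries the median member had a log2 fold change of -0.00 between 1xLPS_LPS and 1xLPS_NO, with 41 of 82 above 0, beside a median of -0.00 and 49.9% above 0 for all genes. Without 1xLPS_NO library 1 it was 0.64 with 80 above 0, and 20 members were among the 3274 genes called. Without 1xLPS_LPS library 3 it was -0.37 with 17 above 0, and 1 member was among the 3967 genes called. Without both it was 0.33 with 66 above 0, and edgeR called 7 members higher and 0 lower, which is 8.54% of them where 13.6% of all genes rose. In the fit of all libraries 2 members rose and 0 fell, where 22.8% of all genes were called (12.0% rose and 10.8% fell). An unadjusted p under 0.05 was found for 3 members and for 35.5% of all genes. DESeq2 called the same 2 and limma 1 of them, among 3804 and 3374 genes called. Groups were separate for 3 members, all higher, where 15.1% of all genes were separate and higher, 12.6% separate and lower and 27.7% either.

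The 2 called members were Rpl37rt and Rps27rt, single-exon copies of the large-subunit gene Rpl37 and the small-subunit gene Rps27. Rpl37rt is annotated as a transcribed processed pseudogene and Rps27rt as protein coding. Rpl37rt had 85.2, 89.6 and 85.0 CPM in 1xLPS_LPS against 44.4, 52.7 and 51.2 CPM in 1xLPS_NO (0.81 ± 0.23, edgeR adjusted p = 0.0155). Rps27rt had 94.9, 106 and 148 CPM in 1xLPS_LPS against 81.3, 62.3 and 59.0 CPM in 1xLPS_NO (0.78 ± 0.22, edgeR adjusted p = 0.0156). The groups did not overlap for either. The Rpl37rt call was lost without 1xLPS_NO library 1 (edgeR adjusted p = 0.0512), and that of Rps27rt without 1xLPS_LPS library 3 (0.0851) or 1xLPS_NO library 3 (0.0700). Many reads of such copies may not be told from those of their parent genes. Of the 50-base words of Rps27, 98.65% are also in Rps27rt, and 91.08% of those of Rps27rt are in Rps27. For Rpl37 the share in Rpl37rt is 31.3%, and 81.22% of the words of Rpl37rt are in Rpl37. With reads of parent and copies joined, Rps27 changed by 0.07 ± 0.43 (edgeR adjusted p = 0.921) and Rpl37 by 0.17 ± 0.27 (edgeR adjusted p = 0.677).

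In the 4xLPS arm no member was called by edgeR between 4xLPS_LPS and 4xLPS_NO, where 18.9% of all genes were (10.6% rose and 8.29% fell). An unadjusted p under 0.05 was found for 3 members and for 30.9% of all genes. DESeq2 called 2 members lower and limma 1, among 3175 and 2600 genes called. The median member had -0.13 with 25 of 82 above 0, beside 0.05 and 53.9% above 0 for all genes, and without 4xLPS_NO library 1 it had 0.10 with 53 above 0. Groups were separate for 7 members that were higher and 5 that were lower, which are 8.54% and 6.1% of members, where 27.4% and 22.4% of all genes were separate in these directions (49.8% together). Rps2, a small-subunit protein near the entry of the messenger RNA channel, had 807, 703 and 1161 CPM in 4xLPS_LPS and 2301, 1209 and 1369 CPM in 4xLPS_NO. Its log2 fold change of -0.87 ± 0.34 missed the call in edgeR (adjusted p = 0.0882) and met it in DESeq2, as did that of Rps21 (-0.64 ± 0.25, edgeR adjusted p = 0.0820). Rps21 had 153, 139 and 166 CPM in 4xLPS_LPS against 311, 196 and 205 CPM in 4xLPS_NO. Without the 3 high libraries edgeR called these 2 lower, which is 2.44% of members where 11.8% of all genes fell. Without 1xLPS_NO library 1 and 1xLPS_LPS library 3 it called 5 members lower and 0 higher, among 4068 genes called. With the 4xLPS arm fitted alone 6 members were lower and 2 higher, the latter being Rpl37rt and Rpl35. The share of all genes in that fit is not given here. These counts are not added support for a change, because leaving libraries out also removes spread of the members.

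The in vivo arms were then compared at rest. Among unstimulated macrophages no member was called by edgeR in 4xLPS_NO against PBS_NO, 1xLPS_NO against PBS_NO or 4xLPS_NO against 1xLPS_NO, and 0% of all genes were in each. Without 1xLPS_NO library 2, however, edgeR called 1588 genes in 1xLPS_NO against PBS_NO and 573 in 4xLPS_NO against 1xLPS_NO, with 1 member in each. Without 1xLPS_NO library 1 and 1xLPS_LPS library 3 it called 241 genes in 4xLPS_NO against PBS_NO, with 0 members, and 55 in 4xLPS_NO against 1xLPS_NO, with 2 members. Members at an unadjusted p under 0.05 numbered 1, 6 and 2 in these comparisons, where 6%, 11.8% and 9.55% of all genes had one. In 4xLPS_NO against PBS_NO groups were separate for 5 members, all higher, where 10.9% of all genes were higher and 8% lower in that way (18.9% together). In 1xLPS_NO against PBS_NO they were separate for 1 member, which was higher, where 6.36% of all genes were higher and 5.05% lower (11.4% together). In 4xLPS_NO against 1xLPS_NO they were separate for 1 member in each direction, where 5.62% of all genes were higher and 6.45% lower (12.1% together). DESeq2 called 0, 0 and 1 member, the last being Rpl35, among 110, 28 and 37 genes, and limma called 0 genes in each. The median member had 0.12, 0.22 and -0.13 with 61, 58 and 30 of 82 above 0, where 43.7%, 50.7% and 48% of all genes lay above 0. But without 1xLPS_NO library 1 alone the last 2 medians were -0.38 and 0.56, so that their direction rested on that library. They were -0.36 and 0.53 with 1xLPS_LPS library 3, which is in neither comparison, left out as well. Without 4xLPS_NO library 1 alone the median in 4xLPS_NO against PBS_NO was -0.07. Rpl39l, a paralog of Rpl39 known from germ cells, had the smallest p in 4xLPS_NO against PBS_NO, with 12.4, 7.37 and 7.89 CPM against 4.21, 4.47 and 5.52 CPM (0.96 ± 0.43, edgeR adjusted p = 0.761).

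Between stimulated macrophages of the 4xLPS and PBS arms the set was displaced downwards. The median member had -0.24 and 15 of 82 lay above 0, beside a median of 0.02 and 51.9% above 0 for all genes. Because members followed one another between libraries, the 82 are not independent observations here either. Without 4xLPS_LPS library 3 the members' median was -0.35 with 11 above 0. With all libraries edgeR called 1 member lower and 0 higher, where 0.0777% of all genes were called (0.0636% rose and 0.0141% fell). An unadjusted p under 0.05 was found for 6 members and for 13.9% of all genes. DESeq2 called the same member and limma 0, among 326 and 102 genes called. Groups were separate for 21 members, each lower in 4xLPS_LPS and 25.6% of the 82, where 14.0% of all genes were lower in that way and 14.8% higher (28.8% together). Without 1xLPS_NO library 1 and 1xLPS_LPS library 3 edgeR called 6 lower, without 4xLPS_NO library 1 as well 10, and with the 2 groups fitted alone 7. These are 7.32%, 12.2% and 8.54% of members, where 2.41%, 3.00% and 0.825% of all genes fell. The fits leave out libraries in which most members were highest, so the larger counts are not added support for a fall. Rpl35, Rpl11, Rpl10 and Rpsa were among those called in all 3 fits. Rpsa, a small-subunit protein once named for a laminin receptor, had 588, 570 and 829 CPM in 4xLPS_LPS against 977, 1355 and 1592 CPM in PBS_LPS (-0.98 ± 0.44, edgeR adjusted p = 0.326 with all libraries). Rpl11, which as part of a complex with Rpl5 and ribosomal RNA can bind the p53 regulator Mdm2, had 188, 200 and 176 CPM in 4xLPS_LPS against 313, 264 and 302 CPM in PBS_LPS (-0.64 ± 0.32, edgeR adjusted p = 0.381). Macrophage markers were also displaced downwards in this comparison, with a median of -0.36 and 1 of 8 above 0, and mitochondrially encoded transcripts upwards, with a median of 0.51 and 15 of 16 above 0. None of either list was called, and their part in the values of the members was not tested.

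When only library totals are used, the median of all genes moves to 0.24 in 4xLPS_LPS against PBS_LPS and the members' median to -0.02, so that the members lie as far below all genes as with TMM. In the PBS response the medians then move to -0.23 for all genes and 0.05 for members, with 49 members above 0. The share of higher calls among all calls is then 31.3%, against 55.4% with TMM. In the 1xLPS response that share is 34.5% against 52.8%. The summed level of stromal markers also differed between groups. It was 3368 to 3479 CPM in 4xLPS_LPS, 1937 to 2190 CPM in PBS_LPS and 1118 to 1277 CPM in PBS_NO. In the other groups it was 2216 to 2466 CPM in 4xLPS_NO, 2197 to 4399 CPM in 1xLPS_LPS and 1561 to 2635 CPM in 1xLPS_NO. The part of stromal markers in the values of the ribosomal protein genes was not tested.

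In the other pairs of stimulated groups edgeR called no member and no gene (0%). In 1xLPS_LPS against PBS_LPS an unadjusted p under 0.05 was found for 3 members and 7.66% of all genes. DESeq2 called 1 member, Rpl35, among 11 genes called, and limma called 0 genes. The members' median was 0.01 with 41 of 82 above 0, where 50.7% of all genes lay above 0, and -0.34 with 7 above 0 without 1xLPS_NO library 1 and 1xLPS_LPS library 3. Groups were separate for 3 members that were higher and 2 that were lower, where 6.25% and 5.77% of all genes were (12% together). In 4xLPS_LPS against 1xLPS_LPS an unadjusted p under 0.05 was found for 1 member, Rps27rt (-0.55 ± 0.22, edgeR adjusted p = 0.734), and 5.99% of all genes, and DESeq2 and limma called 0. The members' median was -0.32 with 14 above 0, where 52.1% of all genes lay above 0, and 0.01 with 45 above 0 without those libraries. Groups were separate for 2 members, both lower, where 7.89% of all genes were higher and 6.51% lower (14.4% together).

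**Figure D3:**
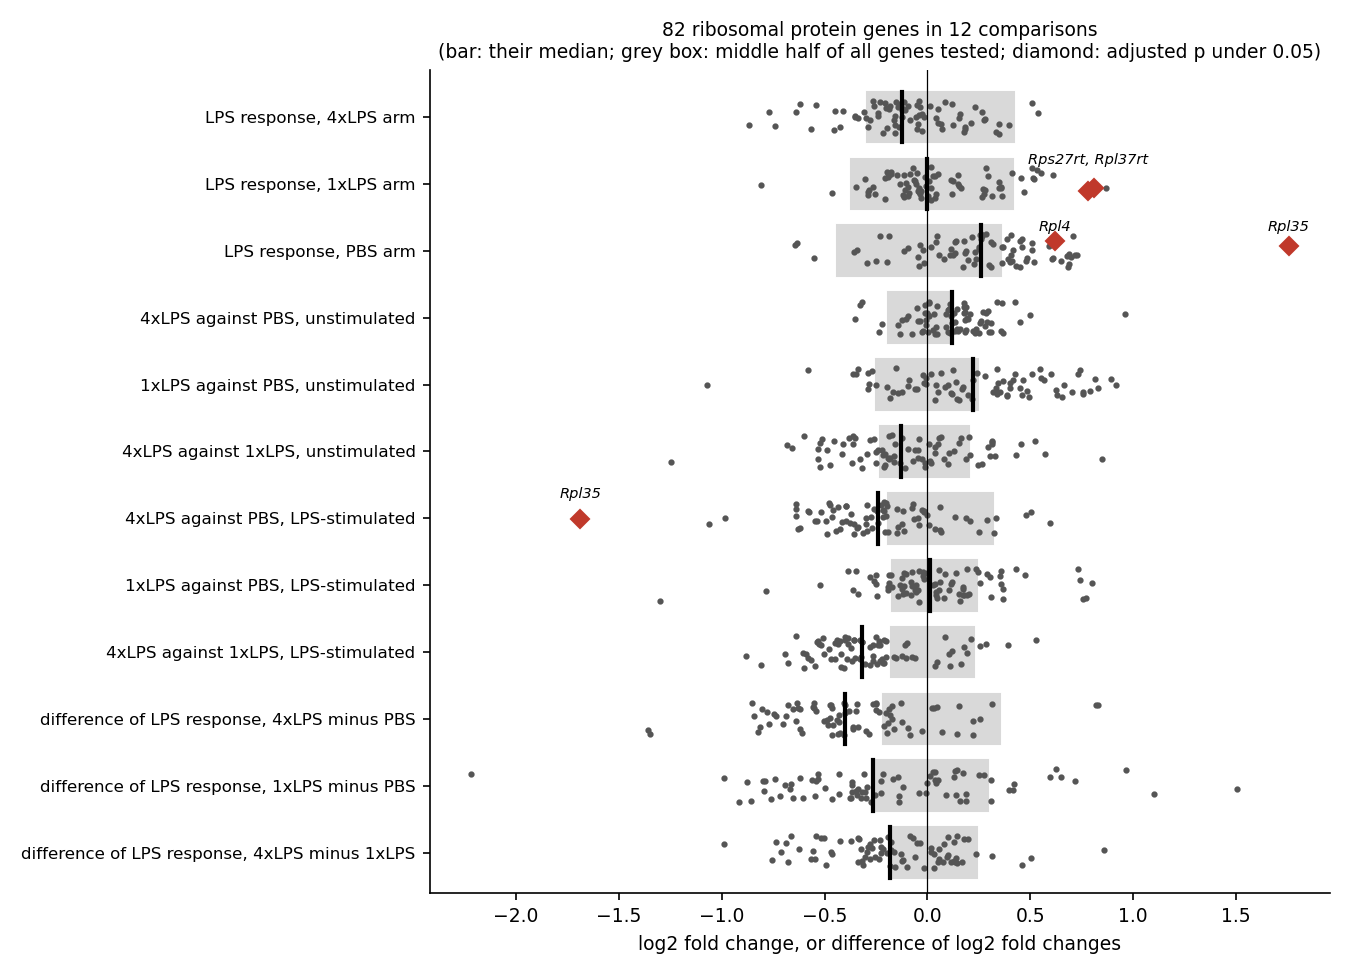
The log2 fold change of each of the 82 ribosomal protein genes (points) in the 12 comparisons (rows), with their median as a bar, the interquartile range of all 14158 genes as a grey box and called genes as red diamonds. In 4xLPS against PBS, LPS-stimulated, the members' median is -0.24, and in the LPS response of the PBS arm it is 0.26, with Rpl35 at the outer edge in both.

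The called member was Rpl35. It had 48.9, 46.3 and 55.8 CPM in 4xLPS_LPS against 69.5, 171 and 245 CPM in PBS_LPS, so that all 3 libraries were lower. The log2 fold change was -1.69 ± 0.31 with an edgeR adjusted p of 0.0499, at the edge of the call. It was lost without PBS_LPS library 2 (edgeR adjusted p = 0.188) or 3 (0.0875), and without 4xLPS_LPS library 1 (0.299), 2 (0.229) or 3 (0.255). In 1xLPS_LPS, with 57.3, 54.5 and 85.6 CPM, Rpl35 overlapped PBS_LPS in library 3 and was lower on average (-1.30 ± 0.31, edgeR adjusted p = 0.485). The 1xLPS_NO libraries had 99.7, 82.6 and 89.6 CPM, above each library of PBS_NO (0.92 ± 0.31, edgeR adjusted p = 0.356), and the 4xLPS_NO libraries had 43.3, 35.8 and 35.7 CPM. In order of its mean level Rpl35 ran from PBS_LPS (162 ± 87.9 CPM) through 1xLPS_NO (90.6 ± 8.63), 1xLPS_LPS (65.8 ± 17.2), 4xLPS_LPS (50.3 ± 4.93) and PBS_NO (48.0 ± 12.7) to 4xLPS_NO (38.3 ± 4.31; SD, n = 3 each). Each group's libraries overlapped those of its neighbours in this order.

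The difference between LPS responses was not called for any member by edgeR (0% of all genes in each of the 3 tests). Unadjusted p was under 0.05 for 3 members in the 4xLPS response minus the PBS response, for 5 in 1xLPS minus PBS and for 1 in 4xLPS minus 1xLPS, where 5.67%, 8.15% and 2.12% of all genes had one. DESeq2 called Rpl35 in 1xLPS minus PBS, among 34 genes, and no other member in the 3 tests. It called 6 genes in 4xLPS minus PBS and 0 in 4xLPS minus 1xLPS, and limma called 0 in each. For Rpl35 the difference was -1.36 ± 0.43 in 4xLPS minus PBS (edgeR adjusted p = 0.808) and -2.22 ± 0.43 in 1xLPS minus PBS (edgeR adjusted p = 0.350). The 4xLPS response alone was 0.40 and the 1xLPS response -0.46 for this gene. The median member had -0.40 in 4xLPS minus PBS with 12 of 82 above 0, beside 0.03 and 53% above 0 for all genes, and -0.28 with 18 above 0 without the 3 high libraries. In 1xLPS minus PBS the median was -0.26 and 29 members lay above 0 (48.8% of all genes). It was 0.42 with 67 above 0 without 1xLPS_NO library 1, -0.56 with 11 above 0 without 1xLPS_LPS library 3, and 0.00 with 42 above 0 without both. In 4xLPS minus 1xLPS the median was -0.18 and 27 lay above 0 (53.7% of all genes). That median was -0.86 without 1xLPS_NO library 1, 0.14 without 1xLPS_LPS library 3, 0.05 without 4xLPS_NO library 1 and -0.30 without all 3, so that both medians changed sign without single libraries. These comparisons share libraries.

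Rpl35 lies on the minus strand of chromosome 2 (chr2:39001580-39005624, mm10), and its exons overlap those of Arpc5l and Wdr38 on the other strand. The strand setting of the counting is not given in the sources used here. Arpc5l had 11.7 to 27.7 CPM over the 18 libraries and Wdr38 at most 1.16 CPM. A copy annotated as the gene Gm2000 shares 37.57% of the 50-base words of Rpl35 and held 43877 counts over all libraries, against 43033 for Rpl35 itself. Gm2000 had 110, 107 and 94.5 CPM in PBS_LPS against 37.3, 69.6 and 88.7 CPM in PBS_NO (0.67 ± 0.26, edgeR adjusted p = 0.0702), and 84.6, 59.8 and 126 CPM in 4xLPS_LPS. Its 4xLPS_LPS and PBS_LPS libraries overlapped. With the reads of both rows joined, the level was 179, 283 and 340 CPM in PBS_LPS against 74.8, 115 and 153 CPM in PBS_NO, and it rose by 1.23 ± 0.25 (edgeR adjusted p = 0.00119). In 4xLPS_LPS the joined level was 131, 105 and 177 CPM, and the difference from PBS_LPS was -0.96 ± 0.25 (edgeR adjusted p = 0.139), no longer called. The 1xLPS response of Rpl35, not called either way, was -0.46 alone and 0.18 joined.

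**Figure D4:**
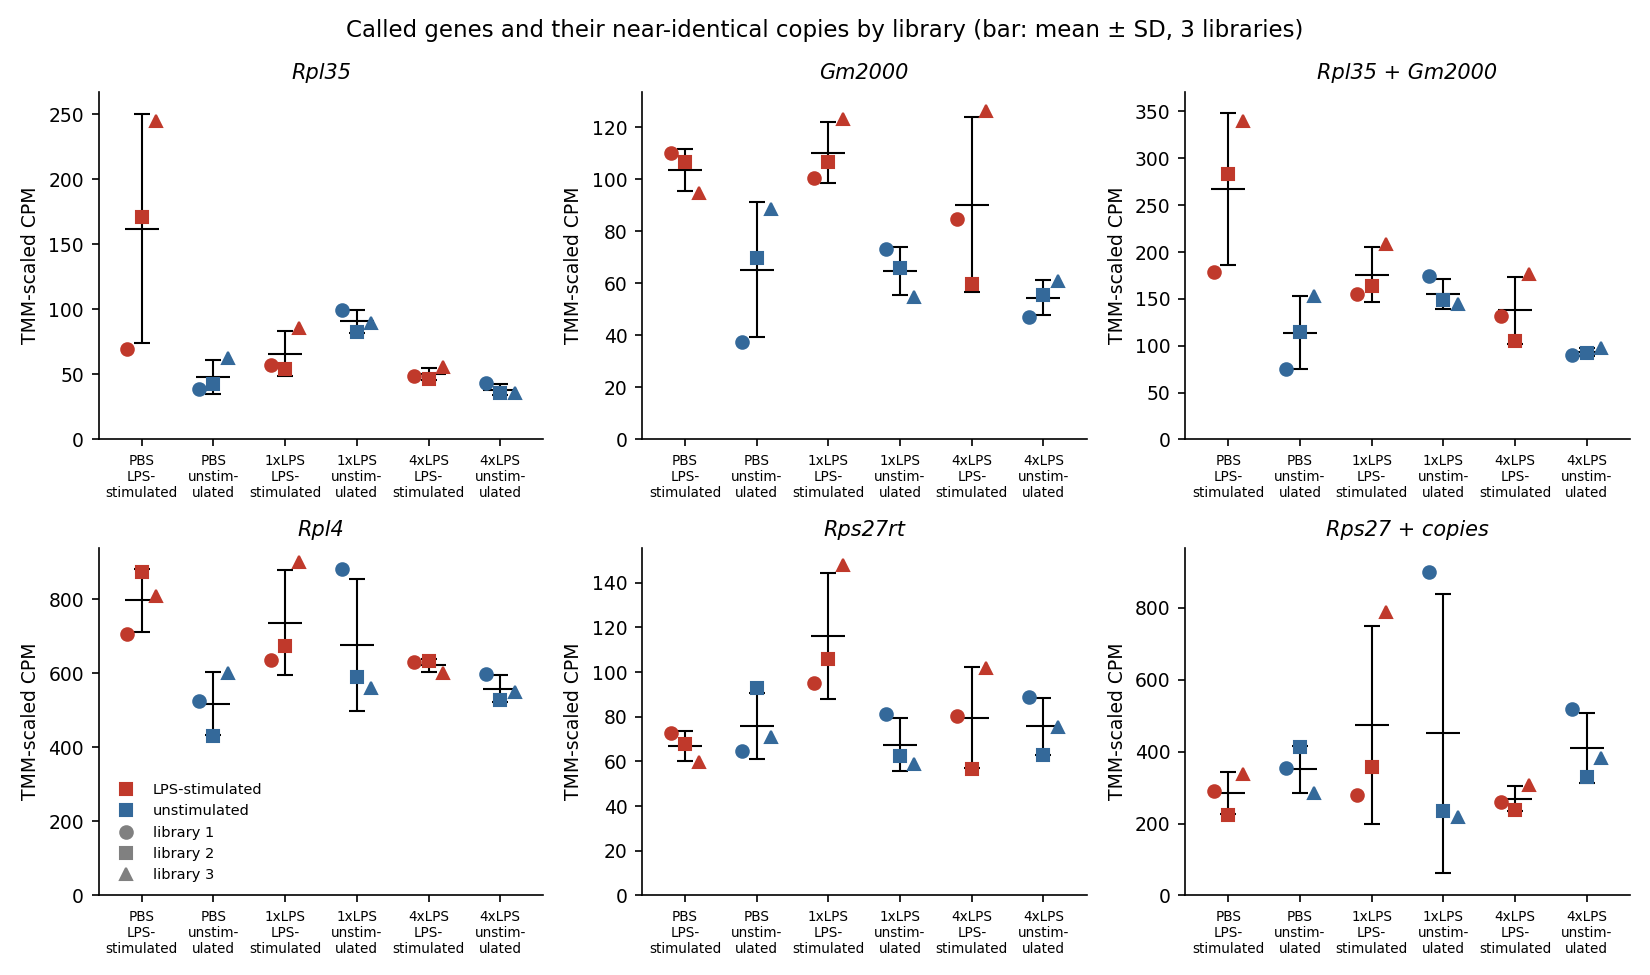
TMM-scaled CPM (vertical axes) by group (horizontal axes) of Rpl35, its copy Gm2000, both joined, Rpl4, Rps27rt, and Rps27 joined with its copies, with LPS-stimulated libraries in red, unstimulated ones in blue, and bars for the mean ± SD of 3 libraries. Rpl35 stands high in PBS_LPS libraries 2 and 3 (171 and 245 CPM), while Gm2000 overlaps between PBS_LPS and 4xLPS_LPS.

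Rpl24, a large-subunit protein that bridges to the small subunit, had a low row beside high rows of its copies. Its own row held 1621 counts in all libraries, a mean of 3.13 CPM, whereas its processed pseudogenes Gm9385 and Gm12254 held 38946 and 13101. Gm28037, an overlapping gene on the same strand that holds 69.43% of the 50-base words of Rpl24, had 0 counts. Why the row of Rpl24 is low was not tested. Rpl24 was also the member whose reads followed the rest of the set least. Joined, the family had 119, 89.7 and 150 CPM in 4xLPS_LPS against 78.4, 65.9 and 78.1 CPM in 4xLPS_NO, and 141, 132 and 134 CPM in 1xLPS_LPS against 83.9, 78.6 and 58.9 CPM in 1xLPS_NO. The joined Rpl24 family rose in both arms, by 0.69 ± 0.23 (edgeR adjusted p = 0.0461) and 0.88 ± 0.24 (edgeR adjusted p = 0.0114), and gave 0.40 ± 0.23 in the PBS arm (edgeR adjusted p = 0.229). It was the sole family called in the 4xLPS and 1xLPS arms. In the PBS arm Rpl35 and Rpl4 were the ones called. Of the 82 members, 50 shared at least 50% of their 50-base words with another gene's transcript and 2 shared none. Joining their reads with those of 256 copy rows gave 80 families, which took 3.26% of all counts where the members alone took 2.67%. The median family changed by 0.24 on LPS in the PBS arm, by 0.18 in the 1xLPS arm and by 0.00 in the 4xLPS arm.

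Levels per kilobase of transcript, on the TMM-scaled CPM scale, differed widely between members of the same particle. The median was 350 CPM per kb, with quartiles of 220 and 562. The proteins of the P stalk, which draws translation factors to the large subunit, held the 3 highest values: Rplp2 had 2007, Rplp1 1805 and Rplp0 1321 CPM per kb. Rps2 (1279) and Rpl41 (1229), the smallest of the proteins, followed. The lowest were Rpl24 (4.62), Rpl39l (12.1), Rps4l (14.7), Rpl5 (39.8) and Rps20 (45.1 CPM per kb), and the length used for Rps20 is that of its one coding transcript, 3706 bases. Rplp0 had 1801, 2040 and 1905 CPM in PBS_LPS against 1505, 1495 and 1667 CPM in PBS_NO, a difference of 0.30 that was not called.

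**Figure D5:**
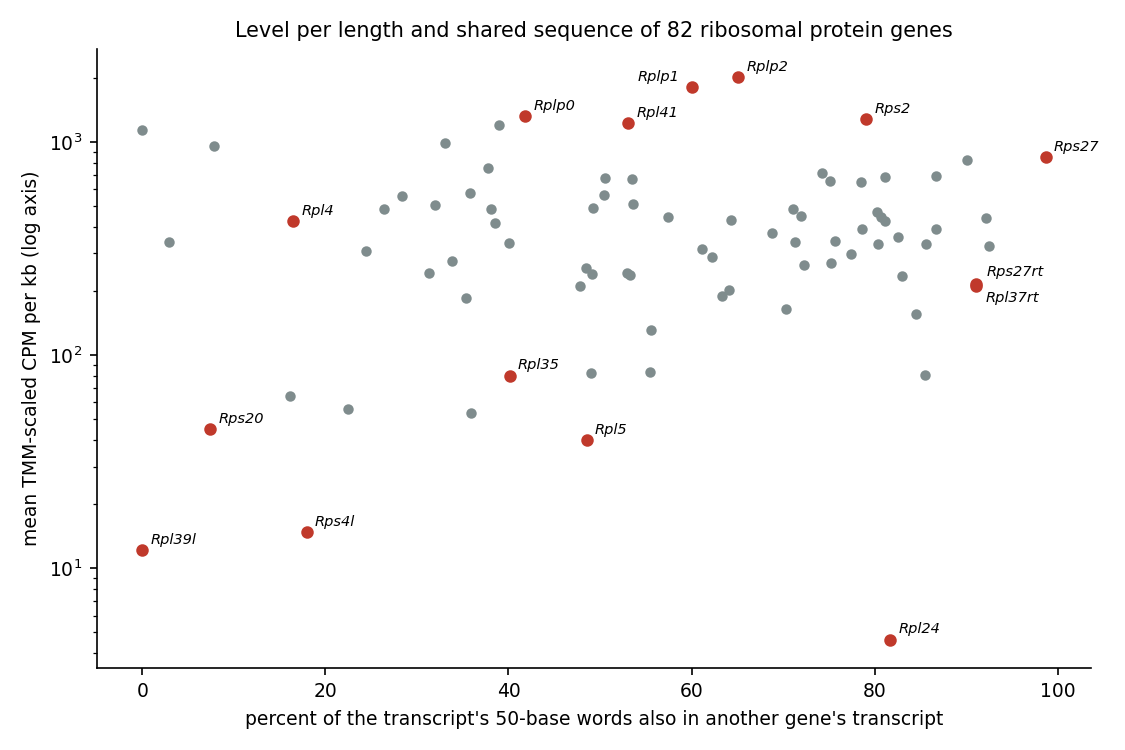
Mean TMM-scaled CPM per kb over 18 libraries (vertical log axis) against the percent of a member's 50-base words found in another gene's transcript (horizontal axis), 1 point for each of 82 genes, with named genes in red. The P stalk genes lie highest, at 1321 to 2007 CPM per kb, and Rpl24 lowest, at 4.62.

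Paralogs within the set differed in level from their partners. Per kb, Rpl39 had 64.6 and Rpl39l 12.1 CPM, Rps4x, the X-linked gene, had 264 and Rps4l 14.7, Rpl36al had 188 and Rpl36a 80.6, and Rps27 had 847 and Rps27l 56.1. None of these was called in any of the 12 comparisons by edgeR with all libraries. Rps4l is annotated as a transcribed processed pseudogene. Of the 50-base words of Rpl36a, 85.48% are also in transcripts of other genes, and the effect of read assignment on these levels was not tested. Rps27a, which is made as a fusion with ubiquitin, had 483, 245 and 288 CPM in PBS_LPS against 203, 319 and 342 CPM in PBS_NO, and its groups overlapped.

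The machinery around the ribosome was described with further lists, to be read beside the 14.0%, 12.0% and 10.6% of all genes that rose and the 11.3%, 10.8% and 8.29% that fell in the PBS, 1xLPS and 4xLPS arms. Of 76 mitochondrial ribosomal proteins edgeR called 5, 1 and 3 higher in the LPS response of the PBS, 1xLPS and 4xLPS arms and 0 lower (6.58%, 1.32% and 3.95% rose), and 15, 10 and 12 had an unadjusted p under 0.05. Mrpl39, of the mitochondrial large subunit, rose in each (1.14 ± 0.19, 0.74 ± 0.19 and 0.69 ± 0.19). Of 14 elongation factors and other TOP messages, such as Eef1a1 and Eef2, 0 were called in each arm, 1, 0 and 0 had an unadjusted p under 0.05, and the list's median was 0.28, 0.04 and -0.14. Of 29 initiation factors 7, 5 and 5 rose (24.1%, 17.2% and 17.2%) and 0 fell, with 27, 19 and 18 above 0. Eif4g2, a scaffold protein related to eIF4G, rose in each arm (1.05 ± 0.15, 0.85 ± 0.15 and 0.77 ± 0.15). Eif1, which helps select the start codon, had 389, 359 and 365 CPM in PBS_LPS against 107, 152 and 176 CPM in PBS_NO, and rose by 1.36 ± 0.22 (edgeR adjusted p = 1.1e-04).

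Among 44 ribosome biogenesis and RNA polymerase I genes, 8, 3 and 2 rose in the PBS, 1xLPS and 4xLPS arms (18.2%, 6.82% and 4.55%, beside 14.0%, 12.0% and 10.6% of all genes) and 1 fell in each (2.27%). Sbds, which frees the new large subunit from an assembly factor, had 149, 165 and 114 CPM in PBS_LPS against 55.3, 49.2 and 56.9 CPM in PBS_NO and rose in each arm (1.40 ± 0.14, 1.01 ± 0.14 and 1.07 ± 0.14). Rrs1, another assembly factor, did so as well (1.54 ± 0.20, 0.99 ± 0.20 and 0.92 ± 0.20). In the list of mTOR, S6 kinase and LARP1 control, 4, 5 and 4 of 20 rose (20%, 25% and 20%) and 1, 1 and 2 fell. Eif4ebp1, an inhibitor of cap-dependent translation that mTOR inactivates, rose in each arm (1.79 ± 0.17, 1.30 ± 0.17 and 1.19 ± 0.17), as did Sesn2, an inhibitor of mTOR signalling (1.82 ± 0.20, 1.65 ± 0.20 and 1.30 ± 0.20). Larp1 had 385, 366 and 412 CPM in PBS_LPS against 168, 143 and 166 CPM in PBS_NO, with no overlap, and rose by 1.28 ± 0.18 (edgeR adjusted p = 2.9e-05). Of the 6 ribosomal protein homologs and fusion genes outside the rule, Rps19bp1 rose in the PBS arm (0.56 ± 0.14, edgeR adjusted p = 0.00624) and 0 were called in the others. No gene of these lists was called between the in vivo arms.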

How the data were processed

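The deposited table holds counts per gene for 18 libraries; its sheet name reads RPM, but the values are whole numbers with totals that differ between libraries. Per the labels' protocols, poly(A) RNA was made into Ion Total RNA-seq libraries, sequenced on an Ion Proton and processed with Torrent Suite 5.12, with TopHat2, then Bowtie2, and Cufflinks on mm10. Not given in the sources used here: the counting program, annotation and strand setting. Members and gene lists were chosen with earlier results of these data known. Genes with at least 1 CPM in 3 libraries were fitted with edgeR 4.0.16 (R 4.3.3), TMM scaling and quasi-likelihood tests over 6 group means. DESeq2 1.42.0 and limma 3.58.1 on log2(CPM + 1), other scalings, no filter, left-out libraries and joined copies were alternatives. The procedure was tested on simulated counts. Sequence overlap and lengths come from GENCODE M21, with 50-base words and, for length, the shortest consensus coding transcript. The named genes are the called members, or the 3 with the smallest p where few or none were called, the extremes by level per length, paralogs, and up to 4 called genes of each other list. Others were chosen after their values were seen: the genes called without the 3 high libraries, Rps6, Rps29 and Rpl24. Same-numbered libraries deviated together in 4xLPS_NO against PBS_NO (r = 0.59, 0.20 and 0.38), and not for every number elsewhere. What the number stands for is unlabelled. Some genes are counted in totals but not reported by name here.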

Additional observations from a re-analysis of the deposited data

How the results depend on the processing

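The number of members called was within 1.5 times its value in 171 of 222 alternative fits of the 12 comparisons. Fits with 0 members called both times are among the 171, and most of the 12 comparisons had 0 called with all libraries. In stimulated 4xLPS against PBS the count changed by more in 5 of the 6 fits that left out 1 library. With all libraries the number of members called was 0, 2 and 2 in the 4xLPS, 1xLPS and PBS responses and 1 in stimulated 4xLPS against PBS. The number of all genes called was 2680, 3228, 3579 and 11. That number also differed between fits, for example 5087 in the PBS response without 1xLPS_NO library 1 and 1xLPS_LPS library 3. A larger count of members below is therefore not by itself a result about the members. Leaving out 1 library gave 0 to 0, 1 to 20 and 1 to 3 members in the responses. The 20 came without 1xLPS_NO library 1, where 3274 genes were called in all. The 3 came without PBS_NO library 3, where 2967 genes were called in all. The range was 0 to 1 in stimulated 4xLPS against PBS, stimulated 1xLPS against PBS and unstimulated 1xLPS against PBS. It was also 0 to 1 in unstimulated 4xLPS against 1xLPS and the difference of response 1xLPS minus PBS, and 0 in the others. Without 1xLPS_NO library 1 and 1xLPS_LPS library 3 the responses gave 5, 7 and 17, stimulated 4xLPS against PBS 6 and unstimulated 4xLPS against 1xLPS 2; without 4xLPS_NO library 1 as well, chosen after seeing the data, 2, 7, 25, 10 and 1. Fits of only the groups compared gave 8, 1 and 17 in the responses and 7 in stimulated 4xLPS against PBS. Without the CPM filter the 4xLPS and PBS responses gave 5 and 14, stimulated 4xLPS against PBS 3, stimulated 1xLPS against PBS 4, stimulated 4xLPS against 1xLPS 2, unstimulated 1xLPS against PBS 6, unstimulated 4xLPS against 1xLPS 1, and the differences of 4xLPS and 1xLPS from PBS 2 each. DESeq2 gave 2 in the 4xLPS response and 1 in unstimulated 4xLPS against 1xLPS, stimulated 1xLPS against PBS and the difference 1xLPS minus PBS; limma gave 1 in the 4xLPS and 1xLPS responses. Library totals alone gave 2 in the 4xLPS response. Stimulated 4xLPS against PBS gave 0 with limma, with library totals, with TMM computed without the ribosomal proteins and with copies joined, which was also chosen after seeing the data and gave 1 in the 4xLPS and 1xLPS responses. The Rpl35 response in the 1xLPS arm turned from -0.46 to 0.18 with copies joined. The replicate block left these counts as they were, with 2 in the PBS response and 0 in unstimulated 4xLPS against PBS, and moved no count by over 1.5 times. With pseudogene rows the mean share of counts was 2.92% in PBS_LPS, 2.87% in PBS_NO and 2.82% in 4xLPS_LPS. Without the 5 members with most counts it was 2.07% in PBS_LPS, 1.97% in PBS_NO, 1.95% in 4xLPS_LPS and 2.12% in 4xLPS_NO. Leaving out 1 library gave mean shares of 2.59% to 2.72% in PBS_LPS, 2.44% to 2.67% in PBS_NO, 2.24% to 2.96% in 1xLPS_LPS, 2.04% to 3.33% in 1xLPS_NO, 2.27% to 2.53% in 4xLPS_LPS and 2.52% to 2.99% in 4xLPS_NO. The cause of these changes was not tested. Fits without the high libraries leave out those where most members were highest, and so also remove spread of the members themselves. With 3 libraries a group and a within-group SD of 0.48 for the median member, small changes of single genes were not detectable.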
